A study of Mus musculus with 6 samples.

Results

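Oxidative phosphorylation (OXPHOS) was examined through its nuclear-encoded subunits in the liver of wild-type (WT) and Fmo5-/- mice. The subunits were taken by gene symbol: Nduf genes of the a, b, c, s and v series for complex I, Sdha to Sdhd for complex II, Uqcr genes and Cyc1 for complex III, Cycs for cytochrome c, Cox4 to Cox8 genes with a letter a to c for complex IV, and Atp5 genes for complex V. Of 54446 genes listed, 97 had such a symbol, 8 of them were left out because their symbol contains -ps, and 89 remained. Complex I held 40 of these, complex II 4, complex III 9, complex IV 17 and complex V 18, and the remaining gene was Cycs. RNA-seq libraries had been made from whole liver of 3 WT and 3 Fmo5-/- mice, 1 library per mouse. All were males of 32 weeks of age on the C57BL/6J background, fed a standard chow diet, and the labels list no other allele or treatment for either group. Fmo5 encodes flavin-containing monooxygenase 5, and the gene was disrupted in all cells of the knockout, so effects that start outside the liver and inside it cannot be told apart.

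The respiratory chain lies in the inner mitochondrial membrane. Complex I takes electrons from NADH and complex II from succinate, ubiquinone carries them to complex III, cytochrome c carries them on to complex IV, which reduces oxygen, and complex V uses the resulting proton gradient to make ATP. Most subunits are encoded in the nucleus and imported, a few are encoded in the mitochondrial genome, and hepatocytes, which hold many mitochondria, depend on the pathway for gluconeogenesis, urea synthesis and fatty acid oxidation.

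The knockout was visible in the counts. Normalized counts of Fmo5 were 39808, 37405 and 30239.7 in WT mice and 1071, 1102 and 1194 in Fmo5-/- mice. A normalized count is the number of reads on a gene divided by the scaled size of its library and multiplied by the mean of those sizes over the 6 libraries. The libraries held 44886286 to 52338675 counts on genes. The TMM factors by which library sizes were scaled separated the genotypes, at 0.956 to 0.975 in WT and 1.00 to 1.08 in Fmo5-/- mice, as did the shares of reads at several places, in several genes and unmapped. Library size alone, without these factors, moved the median log2 fold change of all genes tested from 0.0058 to 0.12. Values under that scaling are given beside some of the results only. The part of the read shares was not tested. The summed level of 8 hepatocyte markers overlapped between the genotypes. In bulk liver, fewer cells of a type and less RNA per cell cannot be told apart. The 8 Kupffer cell (liver macrophage) markers all had higher means in Fmo5-/- mice, and Clec4f passed the test. Their summed normalized counts were 10464, 10777 and 9045 in WT mice and 25980.2, 24689.9 and 14133 in Fmo5-/- mice, and the 8 lymphocyte markers also all had higher means. Of 7 adipocyte markers, 3 had enough counts to be tested, and the sum over the list was lower, 1752, 1368 and 1151 in WT mice and 729.4, 760.0 and 613.6 in Fmo5-/- mice, without overlap. Most of that difference lay in Cfd, with a log2 fold change of -3.21, and Cidea, with one of -5.39, whereas Lipe differed by -0.028, and Adipoq, Lep, Plin1 and Ucp1 were too low to be tested. The part of these 3 cell types in the results on the subunits was not tested.

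Of the OXPHOS subunits, Cycs, which encodes cytochrome c, was called lower in Fmo5-/- than in WT mice, and 0 subunits of complexes I to V were called. The median log2 fold change was below 0 in each of these complexes. A gene was called when its adjusted p in edgeR's quasi-likelihood test, with Benjamini-Hochberg adjustment over 16734 genes, was under 0.05 and its mean over the 6 libraries was 500 normalized counts or more. Of the 82 subunits tested, 1 was called lower, against 0.496% of all genes tested, and 0 were called higher, against 0.257%. All calls are genes with a mean of 500 or more, and among the 74 subunits with such a mean the 1 called lower stands against 1.06% of genes. At an unadjusted p under 0.05 in edgeR's test, 21 subunits were lower and 0 higher, against 10.2% and 11.6% of all genes. Of the 74 with a mean of 500 or more, 20 were lower at that p, against 17.6% of genes. The count of 21 moved with single libraries and with the scaling. It was 7 without WT mouse 1, 12 without WT mouse 3, 11 without Fmo5-/- mouse 1, 8 with the limit of 500 before the fit and 4 with library size alone, but 38 with a GC content offset. DESeq2's Wald test called 4 subunits lower, namely Cycs, Ndufs1, Uqcrc2 and Uqcrfs1, against 3.39% of the genes it tested, and 0 higher, against 1.39%. DESeq2 called 6.77% of the genes with a mean of 500 or more lower, and 4 of the 74 such subunits is not a larger share. On counts simulated for 6 such libraries from edgeR's dispersion trend, the share of false calls lay above the threshold for DESeq2 and near it for edgeR. The simulated calls had no limit on the mean, so that share does not carry over to the calls given here.

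The direction was shared by far more subunits than passed a test. The mean was lower in Fmo5-/- mice for 79 of 82 subunits, against 49.2% of all genes tested, and for 74 of the 74 with a mean of 500 or more, against 64% of genes with such a mean. With library size alone as the scaling, 61 of the 82 were lower, because the median log2 fold change of all genes then moved from 0.0058 to 0.12. Relative to that median, 79 of 82 subunits were lower under either scaling. Relative to the median of genes with a mean of 500 or more, 67 of the 74 abundant subunits were lower, and 54 without Fmo5-/- mouse 1. The 3 subunits with a higher mean, Ndufa4l2, Cox6b2 and Atp5l, were among the 8 with a mean under 500. The median log2 fold change was -0.18 over the 82 subunits and -0.062 over all genes with a mean of 500 or more. When genes with a mean under 500 were left out before the scaling and fit, the median of the 74 abundant subunits was -0.11, with 67 lower and 7 higher, and that of all genes was 0.0017. Every Fmo5-/- mouse lay below every WT mouse for 32 of 82 subunits, against 13.5% of all genes, and for 31 of the 74 abundant ones, against 21.9%. Every Fmo5-/- mouse lay above every WT mouse for 0 subunits, against 13.9% of all genes.

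The mice of each genotype were not alike. Over the 74 abundant subunits, the median level was 104.1%, 93.6% and 102.3% of the WT mean in the WT mice and 82.1%, 88.9% and 93.7% in the Fmo5-/- mice. Fmo5-/- mouse 1 was the lowest of the 6 for 54 subunits, mouse 2 for 18 and mouse 3 for 2, so that WT mouse 2 and Fmo5-/- mouse 3 met in the middle. The median over all genes with a mean of 500 or more was 100.6%, 101.0% and 98.3% in WT mice and 97.2%, 93.3% and 96.1% in Fmo5-/- mice. Divided by that median, the subunits stood at 103.5%, 92.7% and 104.1% in WT mice and at 84.5%, 95.3% and 97.5% in Fmo5-/- mice. On this relative scale Fmo5-/- mouse 1 was lowest and WT mouse 2 lay below the other Fmo5-/- mice, so the genotypes overlapped. Without Fmo5-/- mouse 1, the mean was lower for 74 of 82 subunits, their median was -0.13, and 0 were called.

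**Figure D1:**
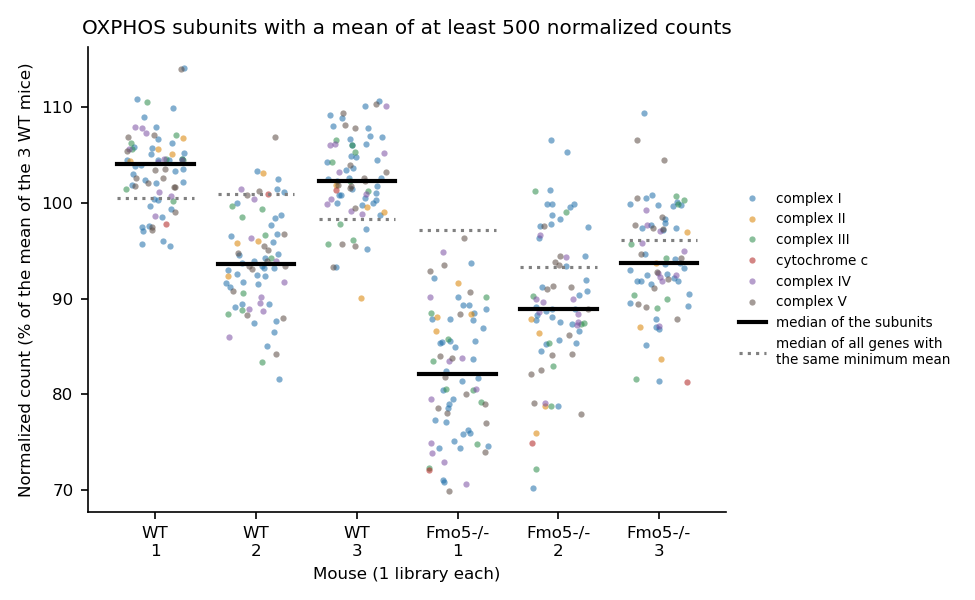
Normalized count of each of the 74 subunits with a mean of 500 or more, as a percentage of its mean in WT mice (y axis), in each of the 6 mice (x axis); points are subunits coloured by complex, black bars their median and dotted bars the median of all genes with such a mean. The black bars run from 82.1% in Fmo5-/- mouse 1 to 104.1% in WT mouse 1, and those of WT mouse 2 and Fmo5-/- mouse 3 are 93.6% and 93.7%.

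As a share of all counts on genes, a measure that takes no scaling factor, the 89 subunits gave 12757, 11914 and 12315 CPM (counts per 1e+06 counts on genes) in WT mice and 10845, 12020.3 and 12249.6 in Fmo5-/- mice. The means were 12328 ± 421 and 11705 ± 753 (SD, n = 3), and the genotypes overlapped. Complex V held the largest of these shares, 4381 ± 125 CPM in WT and 4142 ± 197 in Fmo5-/- mice (SD, n = 3), and complex I came next, with 3535 ± 150 and 3400.3 ± 309. Cytochrome c gave 69.8 ± 1.76 and 57.3 ± 4.43 CPM, without overlap between the genotypes.

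The windows around the transcription start were compared for letters that factors of mitochondrial biogenesis are known to bind. The RefSeq table of 300-base promoters on build GRCm38.p6, from 250 bases before to 50 after a start, held 67 of the subunits' symbols with 72 promoters. On both strands, the NRF1 letters GCGCANGCG were in 22 of the 72 (30.6%), against 11.8% of 14546 promoters of tested genes and 6.25% of all 32851 promoters. The ETS letters CCGGAAG, the core that GABPA binds, were in 16 (22.2%), against 15.8% of promoters of tested genes and 8.86% of all. The YY1 letters AAGATGGCG were in 7 (9.72%), against 2.61% and 1.40%. The CREB letters TGACGTCA were in 5 (6.94%), against 2.82% and 1.79%. The ERRA letters TCAAGGTCA were in 2 (2.78%), against 0.309% and 0.423%. Any of the 5 motifs was in 40 of the 72 (55.6%), against 28.7% and 16.5%. The CREB letters were added after the promoters had been read. The NRF1 and YY1 letters were shortened by 1 after a first count, in which the forms of 10 letters were in 18 (25%), against 8.90% and 4.60%, and in 5 (6.94%), against 1.74% and 0.852%. The shares of the motifs are therefore descriptions of letters chosen with the sequences in view. Some of these promoters are alternative starts of 1 gene, and a match describes the letters in a window only.

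In each complex the subunit with the smallest p among those with an entry was taken, and its promoter is shown where it held any of these letters, with the matches in capitals. That of Cycs lies on the minus strand at chr6:50566520-50566819, that of Uqcrfs1 on the minus strand at chr13:30545267-30545566, that of Sdhd on the minus strand at chr9:50603800-50604099, and the more downstream start of Atp5c1 on the minus strand at chr2:10080383-10080682. Cycs and Uqcrfs1 each hold the CREB letters, from base -169 to -162 and from -29 to -22 counted from the start. Cycs also holds the NRF1 letters from -61 to -53, a match that the form of 10 letters did not give. Sdhd holds the NRF1 letters from -79 to -71, the ETS letters from -46 to -40 and the ERRA letters from 37 to 45, and Atp5c1 holds the NRF1 letters from -17 to -9. The windows of Ndufv2 and Cox5a, chosen in the same way for complexes I and IV, and the upstream start of Atp5c1 held none of these letters.
Cycs: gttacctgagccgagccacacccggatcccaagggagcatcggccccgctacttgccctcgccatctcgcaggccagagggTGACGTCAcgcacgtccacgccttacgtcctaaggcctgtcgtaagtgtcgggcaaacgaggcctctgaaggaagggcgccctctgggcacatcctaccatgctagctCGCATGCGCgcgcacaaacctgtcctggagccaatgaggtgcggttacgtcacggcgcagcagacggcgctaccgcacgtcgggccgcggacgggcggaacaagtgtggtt
Uqcrfs1: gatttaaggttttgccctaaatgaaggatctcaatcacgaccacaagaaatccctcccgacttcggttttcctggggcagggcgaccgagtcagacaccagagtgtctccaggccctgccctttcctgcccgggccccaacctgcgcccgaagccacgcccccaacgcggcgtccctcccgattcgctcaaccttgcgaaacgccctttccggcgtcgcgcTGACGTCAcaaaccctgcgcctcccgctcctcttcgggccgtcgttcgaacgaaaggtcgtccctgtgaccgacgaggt
Sdhd: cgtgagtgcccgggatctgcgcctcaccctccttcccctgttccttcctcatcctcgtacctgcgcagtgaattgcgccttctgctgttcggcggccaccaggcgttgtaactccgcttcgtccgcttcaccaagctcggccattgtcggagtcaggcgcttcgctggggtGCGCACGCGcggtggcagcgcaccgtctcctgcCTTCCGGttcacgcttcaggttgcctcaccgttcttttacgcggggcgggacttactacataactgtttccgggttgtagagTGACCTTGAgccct
Atp5c1: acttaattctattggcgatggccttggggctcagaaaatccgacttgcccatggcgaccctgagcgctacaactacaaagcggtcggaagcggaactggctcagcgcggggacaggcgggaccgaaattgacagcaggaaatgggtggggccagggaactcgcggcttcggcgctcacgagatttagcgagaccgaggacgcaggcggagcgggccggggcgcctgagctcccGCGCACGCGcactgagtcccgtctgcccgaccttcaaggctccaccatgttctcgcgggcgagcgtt

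Complex I, the NADH dehydrogenase, had 38 subunit genes tested, of which 0 were called by edgeR and 1 by DESeq2, and the mean was lower in Fmo5-/- mice for 37. The median log2 fold change of the complex was -0.18, and -0.066 with library size alone. Ndufs1, on chromosome 1 (63143596 to 63176833, GENCODE vM21 on mm10), encodes the largest subunit of the peripheral arm and carries iron-sulfur clusters. Its normalized counts were 6274, 5740.1 and 5425 in WT mice and 4568, 4082 and 4730.1 in Fmo5-/- mice. All of the Fmo5-/- values lay below all WT values. The log2 fold change was -0.38 ± 0.092 (SE), with an adjusted p of 0.0710 in edgeR's quasi-likelihood test and 0.00974 in DESeq2. Ndufv2 encodes another iron-sulfur protein of the NADH-binding module. It had 6534, 5948 and 6706 normalized counts in WT and 4757, 5037 and 5726 in Fmo5-/- mice. The genotypes did not overlap, and its log2 fold change of -0.31 ± 0.096 had an adjusted p of 0.114 in edgeR.

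The 7 nuclear core subunits of complex I, which carry the flavin and the iron-sulfur clusters, differed in how the mice were spread from the 28 abundant accessory subunits, which surround the core. The median of the core subunits was 102.1%, 100.04% and 100.3% of the WT mean in WT mice and 87.9%, 88.9% and 91.5% in Fmo5-/- mice. The accessory subunits stood at 104.2%, 92.9% and 103.5% in WT and 81.6%, 91.6% and 93.7% in Fmo5-/- mice. The WT mice were close together for the core, whereas WT mouse 2 lay within the range of the Fmo5-/- mice for the accessory subunits. Fmo5-/- mouse 1 was the lowest of the 6 for 26 of the 28 accessory subunits and for 3 of the 7 core subunits. The core transcripts ran from 758 bases (Ndufs7) to 2590 (Ndufs1). Those of the abundant accessory subunits ran from 315 (Ndufc1) to 2020 (Ndufa10). The part of transcript length in these spreads was not tested. Within the core the log2 fold changes ran from -0.38 for Ndufs1 to -0.012 for Ndufs7, singled out here for its small value and at 0.099 with library size alone, whose counts were 4406, 4524 and 4486 in WT and 4035, 4376 and 4892 in Fmo5-/- mice. Ndufs7, which carries the last iron-sulfur cluster before ubiquinone, thus spanned both sides of the WT range. Its 95% interval on the log2 scale, -0.21 to 0.19, includes a difference of the size of the subunits' median.

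Per length of transcript, Ndufa4 had the highest level under the complex I pattern, 37580 ± 2812 normalized counts per kb in WT and 30781 ± 2497 in Fmo5-/- mice (SD, n = 3). Its product was first assigned to complex I and is now counted with complex IV. Its counts were 17982, 15554 and 17421 in WT and 12630.1, 14354 and 14755 in Fmo5-/- mice, without overlap, and its log2 fold change was -0.29 ± 0.099 with an adjusted p of 0.140 in edgeR. Its paralog Ndufa4l2, a gene known to respond to hypoxia, had the lowest level of the genes tested under that pattern, 71.2 ± 9.69 and 94.5 ± 20.3 counts per kb. Ndufa4l2 had 59.3, 63.6 and 76.7 normalized counts in WT and 68.0, 105.6 and 91.3 in Fmo5-/- mice, and its log2 fold change of 0.41 ± 0.23 had an adjusted p of 0.334 in edgeR. The genotypes overlapped for Ndufa4l2. Ndufs6b, annotated as a processed pseudogene of 348 bases, had the most negative log2 fold change of all subunit symbols, -0.74 ± 0.21, with an adjusted p of 0.0939 in edgeR, on a mean of 49.3 normalized counts. It had 57.2, 61.4 and 66.5 in WT and 36.3, 34.0 and 40.3 in Fmo5-/- mice, whereas Ndufs6 itself differed by -0.15 ± 0.087.

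Complex II, succinate dehydrogenase, also belongs to the citric acid cycle and has 4 subunits, all of them nuclear. All had a lower mean in Fmo5-/- mice and 0 were called, with a median log2 fold change of -0.20, and of -0.092 with library size alone. Sdhd, a membrane anchor, had 9144, 8415 and 8722 normalized counts in WT and 7721, 6899 and 7622 in Fmo5-/- mice. It alone of the 4 did not overlap, and its log2 fold change of -0.24 ± 0.085 had an adjusted p of 0.146 in edgeR. Sdha, the flavoprotein that oxidizes succinate, had 33062, 31914 and 27899 normalized counts in WT and 28377, 23515 and 25918 in Fmo5-/- mice. Its log2 fold change was -0.26 ± 0.11 with an adjusted p of 0.206 in edgeR, and Fmo5-/- mouse 1 lay above WT mouse 3. Sdhc, the other anchor, differed by -0.16 ± 0.085 and Sdhb, the iron-sulfur subunit, by -0.14 ± 0.087, with adjusted p of 0.311 and 0.383 in edgeR. Over the alternative settings Sdhc ran from -0.22 to -0.051 and Sdhb from -0.25 to -0.033. Within complex II, Fmo5-/- mouse 2 was the lowest of the 6 for 3 of the 4 subunits. Per kb of transcript, Sdhb had the highest level of the complex in WT mice, 10930.4 ± 514, next to Sdha with 10675 ± 935, and these differed by less than their spread. Sdhc had the lowest, 2087 ± 143.

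Complex III, cytochrome bc1, had 9 nuclear genes tested, of which 0 were called by edgeR and 2 by DESeq2, and all 9 had a lower mean in Fmo5-/- mice. Uqcrc2, on chromosome 7 (120635176 to 120659524), encodes a core protein that faces the matrix. It had 12222, 11633 and 11248 normalized counts in WT and 9264, 8452 and 9551 in Fmo5-/- mice. All Fmo5-/- values were lower than all WT values, and the log2 fold change of -0.36 ± 0.086 had an adjusted p of 0.0704 in edgeR and 0.00489 in DESeq2. Exons of another gene, Pdzd9, cover 19.7% of the exonic bases of Uqcrc2, and reads there count for neither gene. Uqcrfs1 encodes the Rieske iron-sulfur protein, which takes the electron from ubiquinol. It had 9629.7, 9474 and 9728 normalized counts in WT and 7743, 7573 and 8556 in Fmo5-/- mice. The WT mice lay close together above all of the Fmo5-/- mice, with a log2 fold change of -0.27 ± 0.083 and an adjusted p of 0.110 in edgeR and 0.0396 in DESeq2.

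Cyc1, which encodes the cytochrome c1 that hands the electron to cytochrome c, differed less. Its counts were 10798, 9879 and 9999 in WT and 9221, 8946 and 10216 in Fmo5-/- mice, and the genotypes overlapped, with a log2 fold change of -0.11 ± 0.089 and an adjusted p of 0.508 in edgeR. Over the alternative settings the log2 fold change of Cyc1 ran from -0.28 to -0.0027. Without 1 mouse at a time it ran from -0.17 to -0.065. Among the small accessory subunits, Uqcr10 differed by -0.27 ± 0.11 with an adjusted p of 0.191 in edgeR. Uqcrq, a ubiquinone-binding accessory subunit, had the highest level per kb of the complex, 40541 ± 5907 in WT and 37867 ± 4575 in Fmo5-/- mice, and its log2 fold change of -0.098 ± 0.13 was positive, 0.017, with library size alone. Uqcrc2 had the lowest level per kb, 6171 ± 259 and 4794 ± 301. The 4 catalytic and core proteins stood at 104.5%, 99.0% and 97.0% of the WT mean in WT and 84.6%, 80.9% and 91.6% in Fmo5-/- mice, without overlap. The 5 accessory subunits stood at 106.3%, 88.8% and 105.3% in WT and 80.4%, 90.3% and 95.7% in Fmo5-/- mice. For the accessory subunits WT mouse 2 lay below both Fmo5-/- mouse 2 and mouse 3, whereas for those of complex I it lay between them. The core transcripts of complex III ran from 1363 bases (Uqcrfs1) to 1896 (Uqcrc2) and the accessory ones from 405 (Uqcrq) to 547 (Uqcrh). Role and transcript length thus cannot be told apart here.

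Cytochrome c, the soluble carrier between complexes III and IV and a trigger of apoptosis when released, was the gene called. Cycs lies on chromosome 6 (50562563 to 50566538, minus strand). Its normalized counts were 3461, 3571 and 3586 in WT mice and 2552, 2649.9 and 2878 in Fmo5-/- mice. The WT mice lay within a narrow band, 3539 ± 68.2 (SD, n = 3), and every Fmo5-/- mouse was well below it, at 2693 ± 167. Expression of Cycs fell by 0.39 ± 0.077 (SE) on the log2 scale, to 76.1% of WT, with an adjusted p of 0.0473 in edgeR's quasi-likelihood test and 0.00165 in DESeq2. Of the 75-base windows of its transcript, 26.1% also occur in transcripts of other genes, and reads from those windows could be lost or shared. The call rests near the threshold. It was lost in edgeR with the scaling without the 20 most abundant genes, the limit of 500 before the fit, reads of 1 strand, library size alone and a GC content offset. Of the 6 fits that each leave out 1 mouse, it held only without Fmo5-/- mouse 3, with a log2 fold change between -0.45 and -0.36 and an adjusted p between 0.0340 and 0.143 in edgeR.

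**Figure D2:**
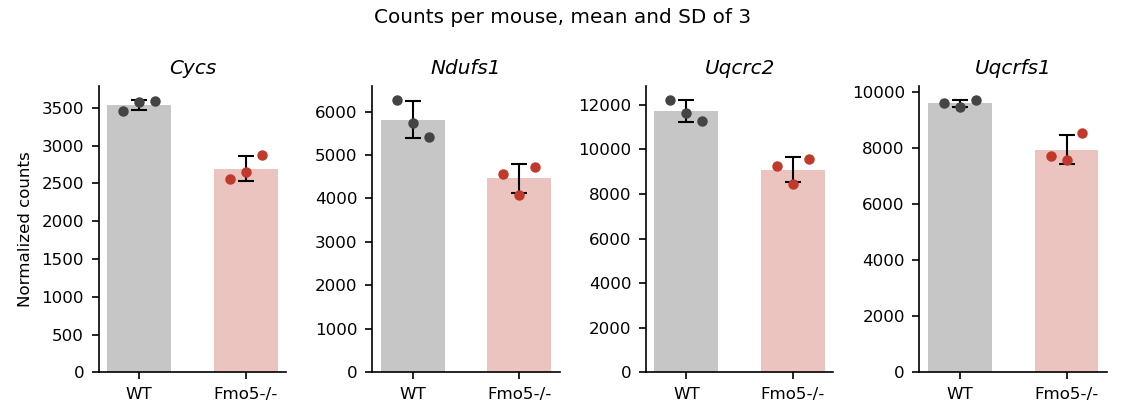
Normalized counts (y axis) of the 4 subunits that DESeq2 called, in WT and Fmo5-/- mice (x axis); points are mice, bars the mean and error bars the SD of 3 mice. No Fmo5-/- point reaches a WT point in any panel, and for Cycs the means are 3539 and 2693.

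Complex IV, cytochrome c oxidase, had 13 genes tested and 0 called, with a median log2 fold change of -0.21, and of -0.093 with library size alone. Of these, 12 had a lower mean in Fmo5-/- mice, and Cox6b2 had a higher one. Cox5a, a subunit of the matrix side, had 4658, 4289 and 4416 normalized counts in WT and 3719, 3526 and 3883 in Fmo5-/- mice. It did not overlap, and its log2 fold change of -0.26 ± 0.078 had an adjusted p of 0.102 in edgeR, the smallest of the complex. Cox8a, the ubiquitous form of a small membrane subunit, differed by -0.21 ± 0.098 and Cox7a2, the liver form of another, by -0.24 ± 0.12, with adjusted p of 0.265 in edgeR for both. Cox8a ran from -0.36 to -0.093 over the alternative settings, and Cox7a2 from -0.32 to -0.13 without 1 mouse at a time. Fmo5-/- mouse 3 was the highest of its genotype for all 10 abundant subunits, and mouse 1 was the lowest of the 6 for 7 of them.

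The tissue forms of complex IV subunits followed the known pattern of liver, and none of them was called. Cox6a1, the liver form, had the highest level per kb of the complex, 31530.0 ± 448 in WT and 29659 ± 1293 in Fmo5-/- mice. Its log2 fold change of -0.088 ± 0.082 was 0.020 with library size alone. Its muscle form Cox6a2 had 1 to 5 raw counts per library and was not tested. Cox7a1, the muscle form, had 225 ± 82.7 and 188 ± 19.2 counts per kb, against 10129 ± 790 and 8552 ± 1222 for Cox7a2. Cox7a2l, which takes part in supercomplexes of III and IV, had 2020.4 ± 21.0 and 1832 ± 21.6 counts per kb and did not overlap between the genotypes, with a log2 fold change of -0.14 ± 0.069 and an adjusted p of 0.271 in edgeR. Cox6b1 differed by -0.14 ± 0.097 and Cox7b by -0.24 ± 0.12. Over the alternative settings Cox7a2l ran from -0.17 to -0.031 and Cox6b1 from -0.21 to -0.022. Cox7b ran from -0.34 to -0.13. Cox6b2, a testis form, had the lowest level of the genes tested, 22.5 ± 5.49 and 28.8 ± 8.27 counts per kb, on 10 to 21 raw counts per library. Cox7b2 and Cox8c had 0 counts in every library, which allows up to 3 counts each and covers counting error only, and Cox8b had 1 to 10 raw counts. Cox6c2, a processed pseudogene, had a mean of 47.7 normalized counts and shares 45.2% of its windows with other genes.

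**Figure D3:**
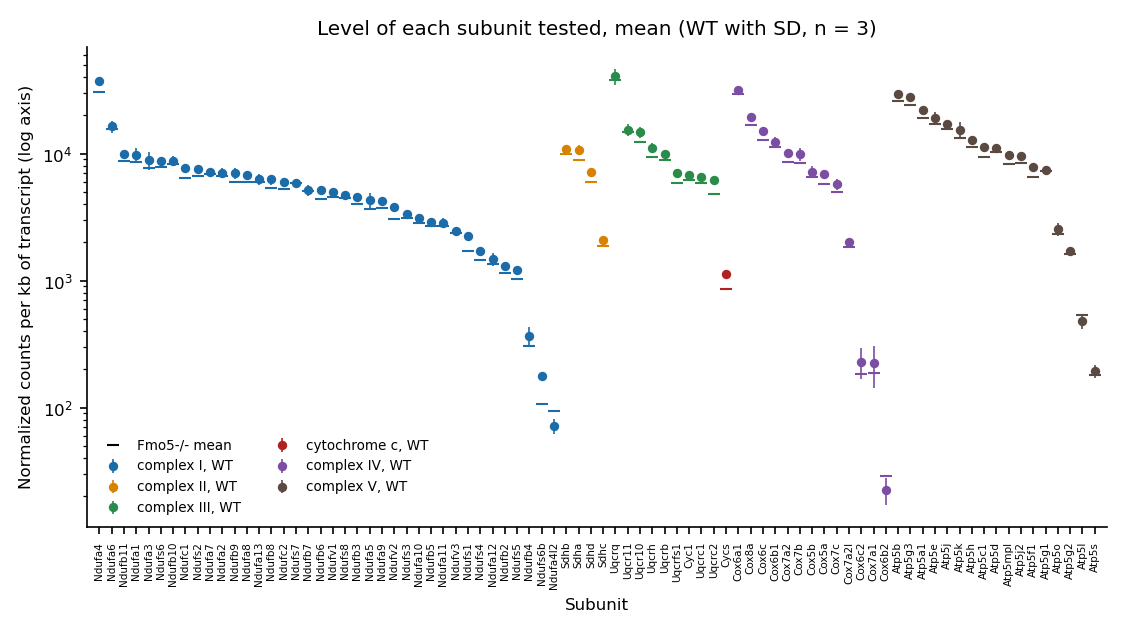
Level of the 82 subunits tested, as normalized counts per kb of transcript on a log axis (y axis), ordered within each complex (x axis); points with bars are the mean and SD of the 3 WT mice and dashes the mean of the 3 Fmo5-/- mice. Liver and ubiquitous forms lie above muscle and testis forms of the same subunit, with Cox7a2 at 10129 against Cox7a1 at 225 and Cox6b1 at 12314 against Cox6b2 at 22.5, and the dash lies below the point for 79 of 82, or 61 with library size alone.

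Complex V, the ATP synthase, had 17 genes tested and 0 called, with a median log2 fold change of -0.17, and of -0.055 with library size alone. Of these, 16 had a lower mean in Fmo5-/- mice. Atp5c1, the gamma subunit that turns within the catalytic head, had 13367, 12439.8 and 13276 normalized counts in WT and 10659.8, 10303 and 11653 in Fmo5-/- mice. It did not overlap, and its log2 fold change of -0.26 ± 0.087 had an adjusted p of 0.133 in edgeR. Atp5f1, a subunit of the peripheral stalk, had 13469, 11744 and 12513 in WT and 9939.7, 10380.2 and 11214 in Fmo5-/- mice. It did not overlap either, and differed by -0.26 ± 0.092 with an adjusted p of 0.148 in edgeR. Atp5mpl, a small membrane subunit, differed by -0.24 ± 0.097 with an adjusted p of 0.193 in edgeR.

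Atp5b, the catalytic beta subunit, had the highest level per kb of the complex, 29245 ± 1796 in WT and 25815 ± 1578 in Fmo5-/- mice. Its counts were 59076, 56728 and 52299 in WT and 50797, 46000.1 and 51586 in Fmo5-/- mice. The ranges did not overlap, though WT mouse 3 and Fmo5-/- mouse 3 were close, and the log2 fold change was -0.18 ± 0.095 with an adjusted p of 0.311 in edgeR. For the 5 genes of the catalytic head the median was 103.4%, 96.8% and 101.6% of the WT mean in WT and 88.4%, 82.1% and 92.1% in Fmo5-/- mice, so mouse 2 was the low one here, as in complex II. Atp5s, a coupling factor and not a structural subunit, had the lowest level of the genes tested for complex V, 193 ± 22.5 and 180.2 ± 15.4 counts per kb. Its log2 fold change was -0.098 ± 0.14.

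The c-ring of complex V, which turns in the membrane, is encoded by 3 genes with the same mature product. Atp5g3 had 20599, 19018 and 20606 normalized counts in WT and 16066, 16898 and 18625 in Fmo5-/- mice. It was without overlap and differed by -0.22 ± 0.092, with an adjusted p of 0.200 in edgeR. Atp5g1 had 4975, 4778 and 5598 in WT and 4751, 4835 and 5457 in Fmo5-/- mice. The genotypes overlapped, and its log2 fold change of -0.029 ± 0.094 was 0.081 with library size alone. Atp5g2 had 729.7, 800.1 and 714.7 in WT and 721.0, 629.7 and 781.5 in Fmo5-/- mice, with a log2 fold change of -0.074 ± 0.10 that was 0.033 with library size alone. Per kb, Atp5g3 had 28116 ± 1282 in WT mice, Atp5g1 7405 ± 619 and Atp5g2 1696 ± 103. The counts of Atp5g1 and Atp5g2 are uncertain, because 50.4% and 100% of their 75-base windows also occur in other genes.

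The same holds for other subunits with near-identical copies. Atp5l, the 1 gene of complex V with a higher mean, had 63.4% of its windows shared and 235, 247 and 297 normalized counts in WT and 238, 298 and 335 in Fmo5-/- mice. The genotypes overlapped for Atp5l, and its log2 fold change of 0.16 ± 0.16 had an adjusted p of 0.611 in edgeR. Cox7c had 50.4%, Atp5h 40.3% and Ndufb4 35.2% of windows shared. Of the 7 subunits that were not tested, Ndufa11b and Ndufb4c are processed pseudogenes with 3 to 7 and 1 to 3 raw counts. A second entry for Atp5o, overlapped along all of its exons by the first and another gene, Donson, together, had 0 counts.

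**Figure D4:**
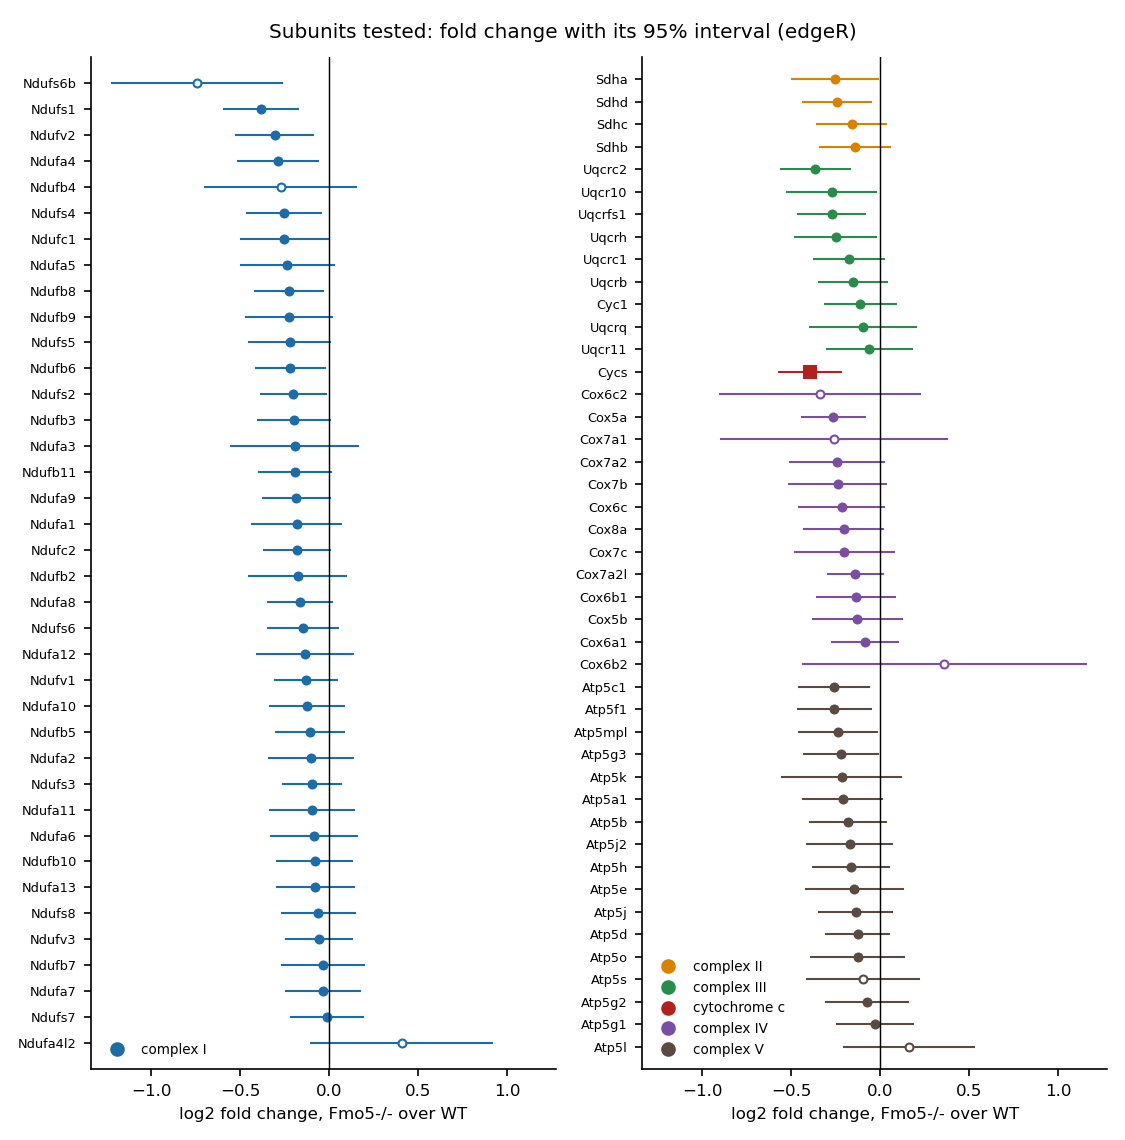
Log2 fold change, Fmo5-/- over WT (x axis), of each of the 82 subunits tested (y axis, by complex), with its 95% confidence interval from edgeR; the square is the 1 gene called and open circles have a mean under 500. Points lie left of 0 for 79 subunits, 18 fewer with library size alone, and most intervals include 0.

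Other genes of the pathway were compared in lists. Subunits outside the symbol patterns had a median log2 fold change of -0.14 over 5 genes tested, with 0 called. Cox4i1, the liver form of the largest nuclear subunit of complex IV, had 17993, 17173 and 18572 normalized counts in WT and 16340.5, 16722 and 18020.1 in Fmo5-/- mice. The genotypes overlapped, and the log2 fold change of -0.073 ± 0.086 was 0.038 with library size alone, while Cox4i2, the lung form, was too low to be tested. Ndufb1-ps, which GENCODE vM21 annotates as a non-coding RNA from a bidirectional promoter, had 3087, 2436 and 3190.0 in WT and 1768, 2264 and 2582 in Fmo5-/- mice, and its log2 fold change of -0.40 ± 0.15 had an adjusted p of 0.180 in edgeR. Ndufab1, the acyl carrier protein, differed by -0.14 ± 0.11, Usmg5, of complex V, by -0.19 ± 0.10, and 1700021F05Rik by -0.086 ± 0.096. Without 1 mouse at a time, Ndufab1 ran from -0.25 to -0.032, Usmg5 from -0.27 to -0.13 and 1700021F05Rik from -0.16 to -0.0083.

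Of the subunits encoded in the mitochondrial genome, 8 of 13 were tested and 0 were called, with a median log2 fold change of -0.13. Not tested were mt-Nd4l, mt-Co2, mt-Co3, mt-Atp6 and mt-Atp8, with 0 to 4 raw counts per library. Of those tested, mt-Nd3 had 32 to 54 raw counts and mt-Co1 927374 to 1101646. The cause of the low counts was not tested. Summed normalized counts, which hold almost nothing of these low genes, were 2.67e+06, 2.65e+06 and 2.85e+06 in WT and 2.51e+06, 2.18e+06 and 2.68e+06 in Fmo5-/- mice. For complex IV they rest on mt-Co1. Fmo5-/- mouse 2, not mouse 1, had the lowest sum. Assembly factors, which build the complexes and are not part of them, gave 0 calls by edgeR in 16 genes for complex I, 4 for II, 6 for III and 22 for IV, with medians of -0.13, -0.043, -0.18 and -0.12. The medians of these and the other gene lists are given under TMM scaling only. Library size alone moved the median of all genes tested from 0.0058 to 0.12. DESeq2 called 1 of the assembly factors lower for complex I, Acad9, and 1 for complex IV, Higd1a, against 3.39% of the genes it tested. Their log2 fold changes in edgeR were -0.46 ± 0.092 and -0.34 ± 0.090, with adjusted p of 0.05002 and 0.0818 in edgeR and 0.00275 and 0.0297 in DESeq2. For complex V the assembly factors Atpaf1, Atpaf2 and Tmem70 differed by -0.032, -0.12 and -0.40, and 0 were called by edgeR. DESeq2 called Tmem70 lower, with an adjusted p of 0.00781 against 0.0599 in edgeR, and the genotypes did not overlap for it. Atpif1, which inhibits the ATP synthase when it runs backwards, had 350.5, 253 and 365 normalized counts in WT and 377, 487 and 371 in Fmo5-/- mice. Every Fmo5-/- mouse lay above every WT mouse for Atpif1, and its log2 fold change of 0.35 had an adjusted p of 0.270 in edgeR. The 14 regulators of nuclear OXPHOS genes, among them Ppargc1a, Nrf1, Gabpa and Esrra, had a median of -0.013, with 0 called. Members with opposite differences make up that median. Every Fmo5-/- mouse lay below every WT mouse for 2 of them, Gabpa, an ETS factor, and Tfam, which packages and transcribes mitochondrial DNA, and above every WT mouse for 2 others, Esrra and Gabpb2. This was so for 13.5% and 13.9% of all genes tested, so 2 of 14 regulators in each direction is near the share of all genes. The log2 fold changes were -0.26 ± 0.084 for Gabpa, -0.22 ± 0.079 for Tfam, 0.12 ± 0.074 for Esrra (-0.038 with a GC content offset) and 0.13 ± 0.073 for Gabpb2, with adjusted p of 0.121, 0.161, 0.389 and 0.347 in edgeR. Ppargc1a, the coactivator of mitochondrial biogenesis, had 363, 248 and 453 normalized counts in WT and 329, 391.9 and 322 in Fmo5-/- mice, and the Fmo5-/- values lay within the WT range.

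Another 17 genes were tested. Apart from Nnt, a transhydrogenase, they feed electrons into the chain by other routes, or make or carry ubiquinone. Of the 17, 2 were called lower. Of all genes tested 0.496% were called lower, and of those with a mean of 500 or more 1.06%. Etfdh encodes the dehydrogenase that passes electrons from fatty acid oxidation to ubiquinone. It had 16383, 15539.7 and 13720.1 normalized counts in WT and 11453, 9805 and 10700.1 in Fmo5-/- mice, without overlap, and fell by 0.51 ± 0.10 on the log2 scale with an adjusted p of 0.0493 in edgeR. Gpd2, the mitochondrial enzyme of the glycerol phosphate shuttle, had 2070.4, 2150.3 and 2057 in WT and 1660.0, 1386 and 1415 in Fmo5-/- mice. It was also without overlap, and fell by 0.49 ± 0.089 with an adjusted p of 0.0430 in edgeR. Both calls rest near the threshold. With the limit of 500 before the fit neither was called, and Etfdh was also lost with reads of 1 strand and with library size alone. Etfdh was called in 0 and Gpd2 in 1 of the 6 fits without 1 mouse, the latter without Fmo5-/- mouse 3, with adjusted p of 0.0512 to 0.148 for Etfdh and up to 0.123 for Gpd2 in edgeR.

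**Figure D5:**
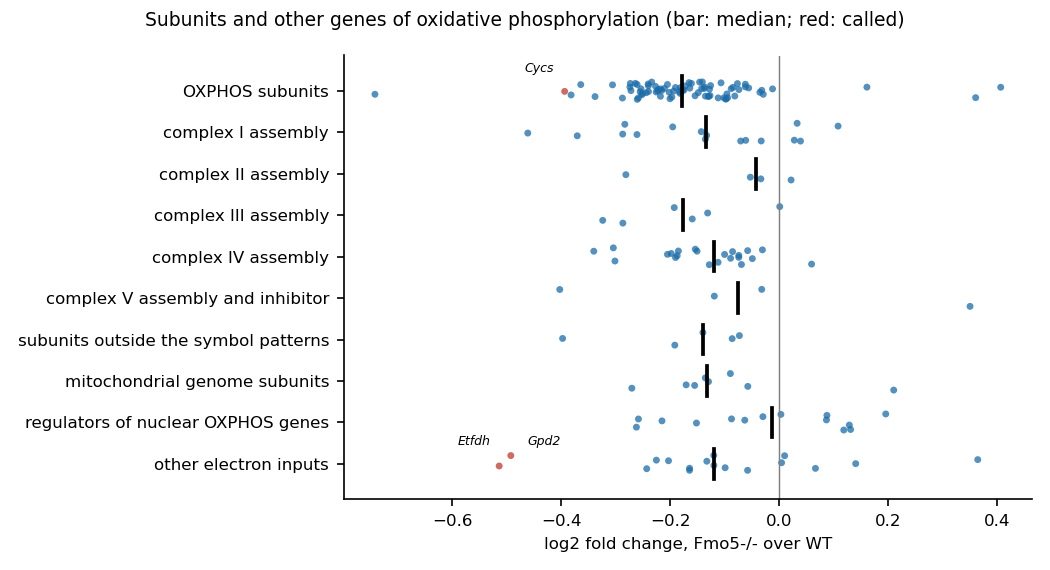
Log2 fold change, Fmo5-/- over WT (x axis), of the genes tested in each list (y axis), with the 82 subunits in the top row; points are genes, black bars medians and red points called genes. The medians run from -0.18 for the subunits to -0.013 for the regulators, and the red points are Cycs, Etfdh and Gpd2.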

How the data were processed

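RNA was sequenced as single reads of 75 bases. The authors clipped adapters and aligned to mm10 using STAR 2.6.0c, whose per-gene read counts they deposited unnormalized, 1 file per library. Their deposited table of a DESeq2 1.22.2 comparison holds signal columns, which are the counts of both strands divided by 1 factor per library, beside fold changes and p-values, which were not used. The other deposited columns, with counts of each strand, served as an alternative. Between 66.2% and 69.2% of reads were counted on genes. Reads at several places (11.8% to 13.1% in WT and 10.4% to 11.5% in Fmo5-/- mice), unmapped (9.72% to 10.1% and 9.10% to 9.20%), in several genes (3.52% to 3.62% and 3.72% to 3.98%) or in no gene (6.86% to 7.02% and 6.96% to 8.63%) were left out.

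Counts were filtered with filterByExpr (minimum count 10), scaled by TMM and tested by the robust quasi-likelihood test of edgeR 4.0.16 in R 4.3.3, without covariates. DESeq2 1.42.0 was an alternative. Both were tested on simulated data, in which both mostly missed changes larger than that of any abundant subunit, edgeR's share of false calls was near its threshold, and that of DESeq2 lay above it. A first, stricter bound on the share recovered was met by neither and was lowered. Standard errors derive from the quasi-likelihood F. P-values set the difference between the genotypes against the spread between 3 mice per genotype, with dispersions moderated over all genes. An exact permutation test of 3 against 3 cannot go below 0.1, so none was run. Positions and lengths are from GENCODE vM21, 1 transcript per gene, matched without version for 54409 of 54446 identifiers. The authors' annotation release is not given in the sources used here.

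The subunits and lists were chosen with earlier results of these data known. Named are all called genes, the 3 smallest p per complex, the highest and lowest level per length, complex II, Cyc1, Cycs, isoform families, untested subunits and subunits outside the patterns. Ndufs7, Acad9, Higd1a, Tmem70, Atpif1 and the 5 regulators with values were added after their values were seen. Alternatives were RLE factors, scaling without the 20 most abundant genes, no filter, the limit of 500 before the fit, 1 strand, a transcript length offset and leaving out each mouse. A GC content offset and library size alone were added after seeing the data.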

Additional observations from a re-analysis of the deposited data

How the results depend on the processing

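The number of subunits called lower depended on the processing. It was 4 with DESeq2, 4 with no filter on low counts (Cycs, Ndufs1, Ndufv2 and Uqcrc2) and 2 with a transcript length offset (Cycs and Ndufs1). It was 0 with the scaling without the 20 most abundant genes, with the limit of 500 before the fit, with reads of 1 strand, with library size only and with a GC content offset, and 0 to 1 without 1 mouse. In edgeR the adjusted p of Cycs under those 5 settings was 0.0515, 0.0707, 0.0672, 0.0849 and 0.0665. The cause was not tested.

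With library size only, the median log2 fold change was -0.067 over all subunits and -0.066, -0.092, -0.066, -0.093 and -0.055 for complexes I to V, and the values of Uqcrq (0.017), Cox6a1 (0.020), Atp5s (0.014), Atp5g2 (0.033), Atp5g1 (0.081), Cox4i1 (0.038) and 1700021F05Rik (0.026) were positive, all by the shift of the scaling. With the limit of 500 before the fit, the median over the subunits was -0.11. The median of complex III was -0.28 with a GC content offset. Atp5g1 was also positive with the limit of 500 before the fit (0.034), without WT replicate 3 (0.045) and without Fmo5-/- replicate 1 (0.0069), and Atp5g2 without Fmo5-/- replicate 2 (0.0064). Esrra was at -0.038 with a GC content offset. Ppargc1a was positive with library size only (0.086), and ran from -0.23 to 0.19 without 1 mouse. Ndufs7 was positive with library size only (0.099), the limit of 500 before the fit (0.053) and without Fmo5-/- replicate 1 (0.050), its highest value without 1 mouse, and its lowest was -0.091. Without 1 mouse at a time, the lowest values were -0.097 for Atp5g1 and -0.15 for Atp5g2. Relative to the median of all genes tested, 67 to 79 subunits were lower in every setting, 67 of the 74 that remained with the limit of 500 before the fit. Relative to the median of abundant genes, 67 of 74 abundant subunits were lower, 59 with a transcript length offset, 61 of 73 with reads of 1 strand, and 54 (without Fmo5-/- replicate 1) to 72 without 1 mouse. Of the other comparisons of named genes, 677 kept direction and side of the threshold, 25 lost the call (all of Cycs, Etfdh or Gpd2) and 21 gained one, 7 of them Acad9, whose adjusted p was 0.05002 in edgeR. Adjusted p in edgeR was 0.0664 for Etfdh and 0.0601 for Gpd2 with the limit of 500 before the fit, and for Etfdh 0.0506 with reads of 1 strand and 0.0530 with library size only.

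No paired analysis was possible because the labels give the mice no numbers shared between genotypes. With 3 mice per genotype the median SE of a subunit was 0.096, against a median log2 fold change of -0.18, and 21 of 82 had an unadjusted p under 0.05 in edgeR, 7 to 28 without 1 mouse and 4 with library size only.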
